A study of Mus musculus with 51 samples.

Results

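Sorted and unsorted tumors grown from transplants were compared: 11 of the 51 arrays of the series, 7 from sorted cells and 4 from unsorted tissue. They were chosen by sample titles, which mark each array as transplanted and as sorted or unsorted. In this model Wap-Cre, a recombinase driven by a milk protein promoter, turns on a knock-in Etv6-NTRK3 allele in mammary epithelium. The fusion product pairs a dimerising end, from the ETS repressor Etv6, with the tyrosine kinase of the neurotrophin receptor NTRK3. A lacZ reporter behind a floxed stop at Rosa26 marks the cells in which Cre has acted, and sorting kept the lacZ+ cells. All 11 tumors grew in RAG2-/- recipients, mice that cannot rearrange antigen receptor genes and so make no mature T or B cells. The 7 sorted tumors came from 5 mice of origin: replicates 1, 2 and 7 from mouse D279 (tumor 1 at passage 2, tumor 2 at passage 2, tumor 1 at passage 4), replicate 3 from E344 (passage 1), replicate 4 from F402 (passage 2), replicate 5 from F433 (passage 1) and replicate 6 from D396 (passage 3). The 4 unsorted tumors came from 2 mice of origin, CR90 (replicates 1 and 2) and CR115 (replicates 3 and 4), each replicate from a recipient of its own number, with no passage stated. The age of the animals is not stated for these samples.

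Unsorted tissue holds every cell of the tumor and is not made into single cells, whereas sorting needs dissociation and keeps the marked epithelium. Cells taken apart from tissue are known to switch on immediate early genes, such as those of the AP-1 transcription factors, and heat shock genes within minutes to hours. The comparison therefore asks what sorting, as a whole procedure, changed in the RNA read from these tumors in hosts without lymphocytes. Sorted and unsorted transplants share no mouse of origin, so effects of the sort and of the mouse of origin cannot be told apart. A lower level in bulk RNA can be fewer cells of a type or less RNA per cell, which cannot be told apart either.

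Values are log2 intensities, with intensities under 32 set to 32, so that 5 is the floor and a gene at 5 has only an upper bound. Differences ± SE are sorted minus unsorted from 1 limma fit over all 6 groups of the series in which arrays from 1 mouse of origin share a random effect. Since that effect weights the mice, the fitted value need not equal the difference of the group means. A gene was called at an adjusted p under 0.05. Array medians lay between 44.2 and 49.7 in unsorted and between 52.3 and 55.0 in sorted transplants, and 38.3 to 42.6% against 35.5 to 37.0% of probe sets lay at the floor. The 11 arrays carried the tissue's markers. The luminal keratin gene Krt8 read 12.50, 12.54, 12.37 and 12.64 in unsorted replicates 1 to 4, and 11.20, 12.37 and 13.02 as the lowest, median and highest sorted value. The milk protein gene Csn2 read 13.02 or more on all 11 arrays.

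Some sorted arrays stood apart. The mean of 20 macrophage marker genes was 7.52, 7.38, 7.53 and 7.27 in unsorted replicates 1 to 4. It was 8.67, 9.59 and 9.77 in sorted replicates 2, 3 and 4, and 7.35, 7.34, 6.28 and 6.75 in sorted replicates 1, 5, 6 and 7. Replicates 2, 3 and 4 thus lay above every unsorted array, although the sort was for epithelium, and the other 4 did not. The mean of 11 pan-leukocyte genes showed the same 3 arrays on top, at 8.46, 8.71 and 9.65 against 7.06 to 7.28 in unsorted and 6.38 to 7.23 in the other sorted arrays. In sorted replicates 1 to 4 the log2 ratio of the 3' to the 5' control probe sets of Gapdh lay between -0.32 and -0.20, and in replicates 5 to 7 it was -0.03, within the unsorted range of -0.04 to 0.09. Many results below, though not every gene, are given with and without replicates 2, 3 and 4.

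Of 15150 genes tested, 2652 (17.5%) passed, 891 higher (5.88%) and 1761 lower (11.6%) in sorted tumors. The groups did not overlap for 766 genes higher on all sorted arrays (5.06%) and 1724 higher on all unsorted arrays (11.4%). The median difference of all genes was -0.01. With every array scaled to the same median intensity it was -0.14, and 615 genes were called higher and 2899 lower, so that 17.5% of calls were higher in place of 33.6%. The count fell to 712 without the 2 arrays of mouse CR90 and to 1446 without sorted replicates 2, 3 and 4. With sorted replicates 5 to 7 alone it was 998.

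AP-1 genes were among the largest rises. Their Fos, Jun and Atf products pair to form a transcription factor made within minutes of a stimulus. Of 8 AP-1 subunit genes 7 rose and none fell, beside 5.88% and 11.6% of all genes, with a median difference of 2.90. Fosb read 5.49, 5.01, 5.65 and 5.33 in unsorted replicates 1 to 4, close to the floor, and 10.05, 10.63 and 11.37 in sorted tumors (lowest, median and highest). The groups lay far apart, and the difference was 5.17 ± 0.37 (limma adjusted p = 2.39e-14), the smallest p of any gene. Fos read 9.14, 8.93, 7.87 and 7.56 unsorted and 11.78, 12.58 and 13.05 sorted, with a difference of 4.21 ± 0.54 (adjusted p = 3.58e-07). The lower unsorted values were those of mouse CR115, and even the higher ones of CR90 lay below every sorted array. Atf3, an AP-1 partner induced by cell stress, read 7.67, 7.34, 8.38 and 8.05 unsorted and 10.12, 11.58 and 11.94 sorted (difference 3.62 ± 0.51), with sorted replicate 7 the lowest. Fosl1 rose by 3.42, Junb by 2.37, Jun by 1.94 and Fosl2 by 1.85. Jund, whose product is made without a stimulus in many cells, had a difference of 0.34 ± 0.22 and did not pass. The same 7 of 8 count held without sorted replicates 2, 3 and 4, and with either replicates 1 to 4 or 5 to 7 alone.

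Of 23 other immediate early genes 17 rose and 1 fell, beside 5.88% and 11.6% of all genes, with a median of 2.18. Dusp1, a phosphatase that switches off the stress kinases p38 and JNK, read 8.27, 8.26, 8.11 and 7.72 unsorted and 11.73, 12.15 and 12.36 sorted (difference 4.08 ± 0.52, adjusted p = 3.71e-07). The sorted arrays lay close together, with an SD of 0.23, and far above the unsorted ones. Nr4a3, an orphan nuclear receptor gene, was at the floor on all 4 unsorted arrays and read 8.01, 9.65 and 10.56 in sorted tumors. Its level was at least 21.3-fold higher after sorting (adjusted p = 6.26e-11), and its 2 other probe sets were not called. Egr1, a zinc finger factor of the first response to growth factors, read 9.41, 9.43, 9.08 and 9.86 unsorted and 9.66, 11.99 and 12.43 sorted. Sorted replicate 7 (mouse D279, tumor 1, passage 4) was the low one and fell within the unsorted range, so the groups overlapped while the difference of 2.20 ± 0.53 passed (adjusted p = 0.00322). Nfkbiz rose by 3.26, the growth arrest gene Btg2 by 3.03 and Zfp36, which speeds the decay of cytokine mRNA, by 2.97. Myc fell by 1.08, and Ier2, Ier3, Nr4a2, Ccn2 and Maff did not pass. H3f3b, a histone H3.3 gene outside the lists, was at the floor on every unsorted array and at least 14.6-fold higher in sorted ones. This rests on 1 probe set, the only one assigned to this gene alone. The floor holds for that probe set and need not hold for all RNA of the gene.

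**Figure D1:**
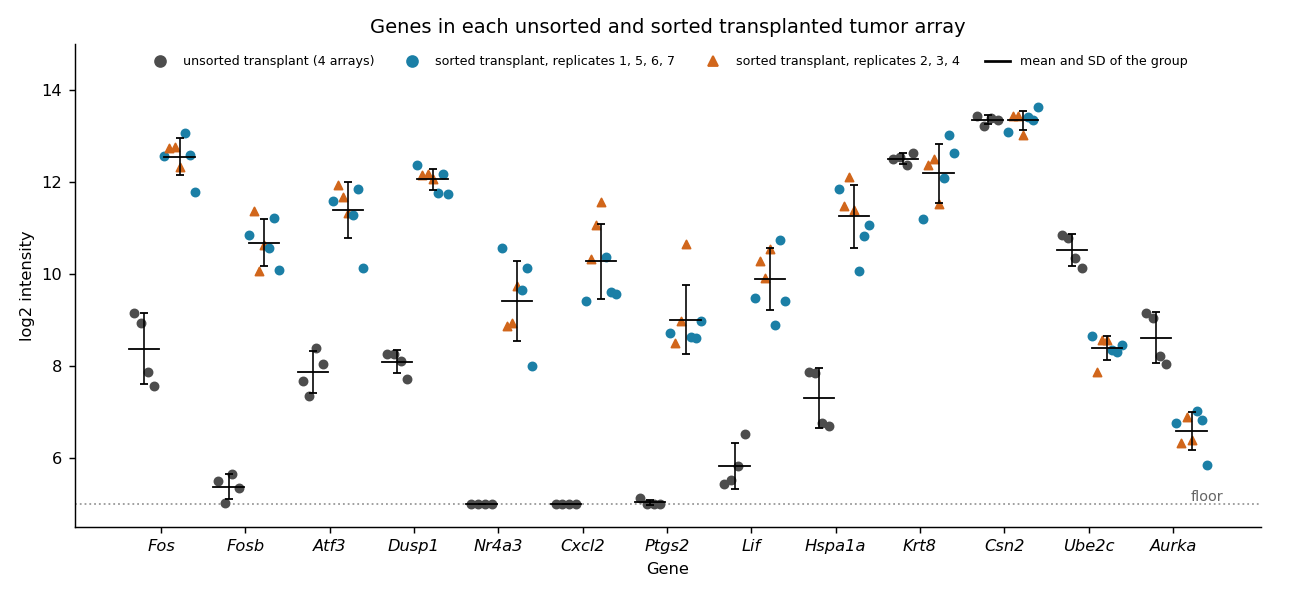
Log2 intensity (vertical axis) of 13 genes on each of the 4 unsorted and 7 sorted transplant arrays, with group means and SD as bars and the floor of 5 as a dotted line. Triangles are sorted replicates 2, 3 and 4. Fos to Hspa1a lie higher on all sorted arrays, Krt8 and Csn2 overlap, and Ube2c and Aurka lie lower on all sorted arrays.

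Promoter stretches of genes that rose are shown because such genes are known to be switched on through short, fixed elements: the CArG box bound by serum response factor, the cAMP response element (TGACGTCA), and the kappa B site bound by NF-kB. Sequences are from RefSeq (GRCm38.p6), 5' to 3' on the gene's strand, and capitals mark the matches, from a search of both strands with overlapping matches included, to the element named below for each gene.
Dusp5: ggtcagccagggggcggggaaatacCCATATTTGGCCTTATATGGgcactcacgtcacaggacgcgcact
Dusp1: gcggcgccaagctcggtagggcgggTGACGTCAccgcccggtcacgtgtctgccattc
Cxcl2: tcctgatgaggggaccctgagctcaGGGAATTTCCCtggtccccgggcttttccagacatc
Cxcl1: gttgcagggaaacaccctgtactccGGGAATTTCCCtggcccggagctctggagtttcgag
Nfkbia: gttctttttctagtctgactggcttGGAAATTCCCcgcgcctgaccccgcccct
The stretches lie at chr19:53529038-53529107 (plus strand), chr17:26508583-26508640 (minus), chr5:90903777-90903837 (plus), chr5:90891149-90891209 (plus) and chr12:55492648-55492701 (minus). Dusp5 holds 2 CArG boxes side by side, Dusp1 a cAMP response element and the other 3 a kappa B site. In the 250 bases before the start, 1.47% of 32851 promoters and 1.44% of the tested genes with a promoter held a CArG box. It was in 2 of 17 immediate early genes with a promoter in the table, Egr2 and Zfp36. The cAMP response element was in 1.55% of promoters and in 2.66% of the tested genes with a promoter. It was in 4 of those 17, Dusp1, Btg2, Ppp1r15a and Maff, of which Maff did not pass. None of 7 AP-1 genes with a promoter held a CArG box or a cAMP response element in those 250 bases, and 3 held a kappa B site. Elements farther from the start, or with letters outside the searched patterns, were not counted, so an absence here does not mean that a gene lacks the element. The kappa B site was in 3.90% of all promoters, in 5.52% of the tested genes with a promoter, and in 7 of 13 genes of the cytokine and NF-kB list described next. A match is a run of letters and no measurement of binding.

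Dusp5 and the other genes of RAS-MAPK feedback, which signalling through receptor kinases such as the one in the fusion is known to induce, did not move together. Of 11 genes 2 rose and 3 fell, beside 5.88% and 11.6% of all genes, with a median of -0.15. Without sorted replicates 2, 3 and 4 the median was 0.17, with 2 rises and 1 fall. Dusp5, a nuclear phosphatase of ERK, read 6.17, 5.99, 5.32 and 5.21 unsorted and 8.97, 10.31 and 11.01 sorted, without overlap, and rose by 4.70 ± 0.52 (adjusted p = 1.19e-08). Spry2, an inhibitor of receptor kinase signalling, rose by 1.30 ± 0.30, with overlap between the groups. Its relative Spry1 read 9.29, 9.28, 9.49 and 9.39 unsorted and 6.54, 7.26 and 7.90 sorted. All sorted arrays lay lower, and the difference was -1.95 ± 0.43 (adjusted p = 0.00136). The ETS factor genes Etv5 (-1.68) and Etv4 (-0.78) also fell. Dusp6, an ERK target often used as a readout of the pathway, had a difference of 0.65 ± 0.36 and did not pass. Hbegf, a ligand of the EGF receptor, and Lif, a cytokine of the IL-6 family, were among the 12 largest rises, by 3.87 ± 0.60 and 4.03 ± 0.55. The other probe set of Lif was not called (0.25).

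The next group was of inflammatory cytokines and of inhibitors that NF-kB induces to limit itself. Of its 18 genes 15 rose and none fell, beside 5.88% and 11.6% of all genes, and the median was 2.44. Cxcl2, a neutrophil-attracting chemokine, was at the floor on all 4 unsorted arrays and read 9.41, 10.33 and 11.56 sorted, at least 38.6-fold higher (adjusted p = 3.88e-08). Its highest values were those of sorted replicates 4 and 3. Ptgs2, the inducible cyclooxygenase of prostaglandin synthesis, read 5.12, 5, 5 and 5 unsorted and 8.50, 8.71 and 10.64 sorted, with sorted replicate 4 far above the other 6 (difference 3.97 ± 0.58). Cxcl1, which read 10.21, 8.80, 8.25 and 9.03 unsorted and 11.32, 12.06 and 12.70 sorted, rose by 3.11 ± 0.56. Among inhibitors Tnfaip3, a ubiquitin-editing enzyme, rose by 3.06 ± 0.50 and Nfkbia, which holds NF-kB in the cytoplasm, by 2.80 ± 0.25. Il1b rose by 3.01, Il6 by 2.88, Ccl3 by 2.58 and Tnf by 1.74. Cxcl5, Ccl7 and Ccl20 did not pass.

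Macrophages are known to make many of these cytokines, and the list's mean was highest on the 3 sorted arrays with high macrophage markers. It was 8.40, 8.79 and 9.89 in sorted replicates 2, 3 and 4, against 8.30, 7.78, 7.82 and 7.55 in replicates 1, 5, 6 and 7. The unsorted arrays read 6.27, 6.14, 6.00 and 6.05, below all 7 sorted arrays. The part of macrophage RNA in these rises was not tested. Without replicates 2, 3 and 4, 10 of the 18 genes rose, none fell and the median was 1.46. Cxcl2 then rose by 4.77, Ptgs2 by 3.64, Cxcl1 by 2.86 and Tnfaip3 by 2.45, with limma adjusted p between 7.65e-06 and 0.00199.

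Of 11 cytosolic heat shock genes 7 rose and none fell, beside 5.88% and 11.6% of all genes, with a median of 0.75. Hspa1a, the inducible HSP70, read 7.87, 7.85, 6.77 and 6.69 unsorted and 10.07, 11.39 and 12.11 sorted, without overlap (difference 3.98 ± 0.38, adjusted p = 2.68e-10). The near-identical Hspa1b, whose probe sets may take up RNA of both genes, rose by 1.64. The HSP40 gene Dnajb1 rose by 2.09 and the HSP110 gene Hsph1 by 1.49. The count was 4 without mouse CR90, CR115 or D279. The mitochondrial chaperone genes Hspd1 and Hspe1 did not pass, nor did Hsp90aa1 and Hspb1. Of 12 genes of the endoplasmic reticulum stress and ATF4 response 3 rose, beside 5.88% of all genes. These were Dnajb9 by 1.30, Atf4 by 0.86 and Ddit3 by 0.84. Without sorted replicates 2, 3 and 4 Ddit3 did not pass (limma adjusted p = 0.153). The 2 other probe sets of Atf4 were not called (0.18 and 0.38). Hspa5, the main chaperone of the endoplasmic reticulum, had a difference of 0.52 ± 0.28 and did not pass.

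Interferon response genes had a median difference of 1.81, but the unsorted arrays differed widely among themselves. The list's mean was 6.19 and 5.90 in the tumors from CR90, 8.15 and 7.64 in those from CR115, and 7.82 to 9.32 in sorted tumors. Of 15 genes 6 rose and none fell, beside 5.88% and 11.6% of all genes. Only 1 of the 15 was higher on all sorted arrays, which is near the 5.06% of all genes. That gene was Cxcl10, a chemokine induced by interferon and by NF-kB. It read 5.28, 5, 6.81 and 6.56 unsorted and 8.28, 10.41 and 11.52 sorted (difference 4.27 ± 0.71, adjusted p = 3.12e-05). Rsad2, the antiviral protein viperin, read 6.51, 6.38, 8.64 and 8.03 unsorted and 8.29, 10.25 and 11.18 sorted, with unsorted replicate 3, from CR115, inside the sorted range and replicate 4 just below it (difference 2.35 ± 0.74, adjusted p = 0.0232). Rtp4 rose by 1.97, Xaf1 by 2.0, Ifit3 by 1.84 and Mx2 by 0.91. The count of rises was 2 without unsorted replicate 1, unsorted replicate 2, sorted replicate 4 or mouse D279, 3 without sorted replicate 1, 2 or 6, and 1 without CR90 or without sorted replicates 2, 3 and 4. Cxcl10 kept its call in each of these settings. Its promoter, at chr5:92348958-92349127 on the minus strand (RefSeq, GRCm38.p6), is shown for the mix of elements in it.
Cxcl10: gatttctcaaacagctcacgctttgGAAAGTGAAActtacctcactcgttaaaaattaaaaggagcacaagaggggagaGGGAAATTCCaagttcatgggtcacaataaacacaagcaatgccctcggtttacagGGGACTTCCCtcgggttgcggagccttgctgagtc
Capitals mark, in order, a match to the core of the interferon-stimulated response element (GAAANNGAAA, both strands searched) and 2 kappa B sites. That core was in 2.98% of all promoters and in 6 of 11 interferon response genes with a promoter in the table, and 2 of those 11 genes held a kappa B site.

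Cell cycle genes were lower in sorted tumors, with a median of -0.94. Of 24 genes 11 fell and 1, the G1 cyclin gene Ccne1, rose (by 1.03), beside 11.6% and 5.88% of all genes. Ube2c, which hands ubiquitin to mitotic proteins, read 10.84, 10.78, 10.34 and 10.13 unsorted and 7.86, 8.45 and 8.64 sorted (difference -2.0 ± 0.43, adjusted p = 0.00103). Aurka, a kinase of the mitotic spindle poles, read 9.14, 9.04, 8.22 and 8.05 unsorted and 5.85, 6.75 and 7.03 sorted (difference -1.83 ± 0.30, adjusted p = 3.29e-05). Both were lower on every sorted array, and the CR90 tumors held the higher unsorted values of both. Called falls were also seen in Aurkb (-1.47), Top2a (-1.46), Bub1 (-1.38) and Mki67 (-1.34), the antigen of the Ki-67 index. Of the 6 Mcm genes, which license replication origins, Mcm6 (-1.22) and Mcm7 (-1.24) fell. The 15 genes of the list that were higher on all unsorted arrays compare with 11.4% of all genes. The count of falls was 2 without CR90, 6 without mouse D279, 6 without sorted replicates 2, 3 and 4 and 7 without unsorted replicate 2, and the median without those 3 sorted arrays was -0.96.

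**Figure D2:**
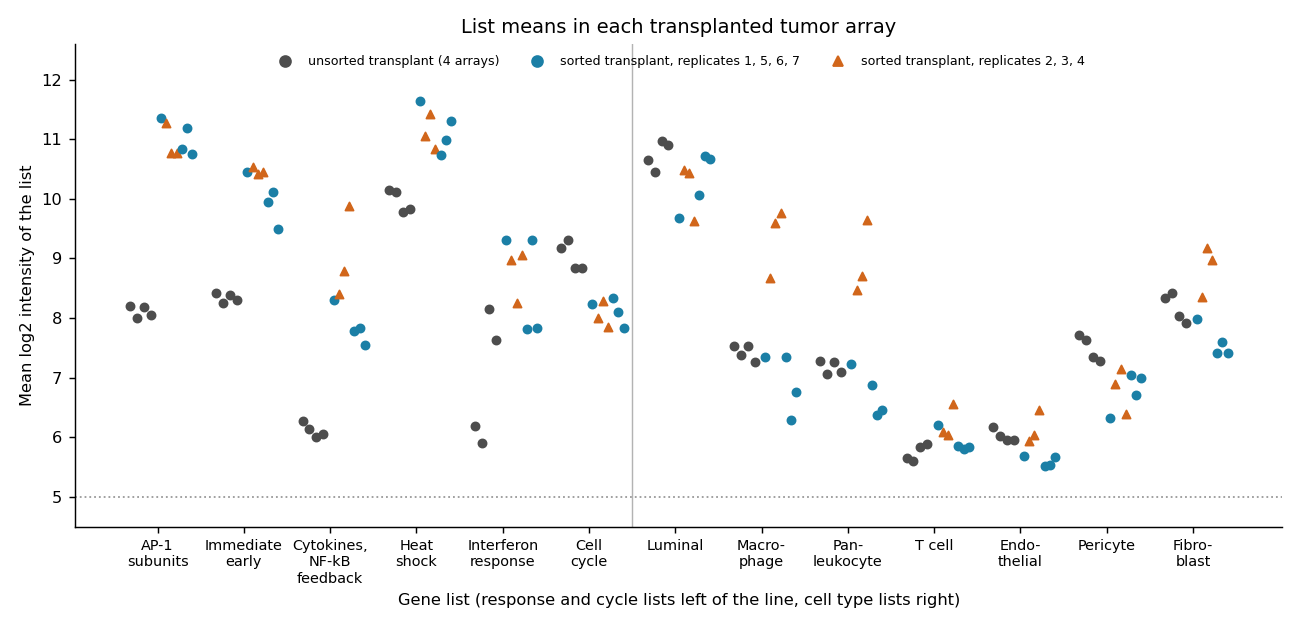
Mean log2 intensity of the tested genes of 13 lists (vertical axis) on each of the 4 unsorted and 7 sorted transplant arrays, 1 point per array. The AP-1, immediate early, cytokine, heat shock, cell cycle and pericyte means do not overlap between groups, and sorted replicates 2, 3 and 4 (triangles) lie above all unsorted arrays in the macrophage and pan-leukocyte means.

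The largest single falls belonged to no such list. Sema3b, a secreted semaphorin, read 10.90, 11.07, 10.53 and 10.80 unsorted and 5.41, 7.34 and 9.30 sorted, and all 3 of its probe sets fell (difference -3.59 ± 0.77, adjusted p = 0.001). The sorted arrays spread widely, with the tumors of D279 tumor 1 highest and F402 lowest. Stra6, the cellular receptor for retinol-binding protein, read 10.58, 10.20, 11.24 and 10.88 unsorted and 5, 7.32 and 8.47 sorted (difference -3.59 ± 0.90). Mtm1, a lipid phosphatase of endosomes, fell by 3.01 ± 0.54, and the type I keratin gene Krt23 fell by 2.87 ± 0.75. Of the 2 other probe sets of Mtm1, with differences of -2.35 and 0.39, 1 was called lower. Prmt1, the main arginine methyltransferase of asymmetric dimethylation, read 9.77, 8.22, 9.92 and 9.69 unsorted and 6.12, 6.24 and 7.04 sorted (difference -2.98 ± 0.44, adjusted p = 4.03e-06). Unsorted replicate 2 was the low one of its group and still lay above every sorted array. The rest of the 12 largest falls included the amino acid transporter gene Slc6a15 (-2.96), Kng1 (-2.81), the precursor of bradykinin, Kctd14 (-2.75) and the arylsulfatase gene Arsi (-2.74). They also included Swi5 (-2.74), a recombination factor gene, the skin protease gene Asprv1 (-2.73) and Lsm2 (-2.67), of the splicing and decay rings. Stra6, Krt23, Kng1, Kctd14 and Asprv1 lost their calls without mouse CR90 (limma adjusted p between 0.0632 and 0.421), with differences of -3.50, -2.84, -1.61, -2.08 and -2.68 in that order, Asprv1 without CR115 (0.119), and Stra6, Kng1 and Asprv1 without sorted replicates 2, 3 and 4 (between 0.0524 and 0.0755).

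Few genes of epithelial identity passed. Of 15 luminal genes 3 fell and none rose, beside 11.6% of all genes lower, with a median of -0.57. The 3 were the tight junction genes Cldn7 (-1.69) and Cldn3 (-1.28), and Esrp1 (-0.98), which controls epithelial splicing. Of 30 alternative settings, Esrp1 lost its call in 14, Cldn3 in 4 and Cldn7 in 2. Without sorted replicates 2, 3 and 4 Esrp1 did not pass (limma adjusted p = 0.159). Krt8 (-0.30 ± 0.34), Krt18 (-0.41 ± 0.37), Epcam (-0.69 ± 0.35) and Cdh1 (0.20 ± 0.32) did not pass. None of 14 milk and alveolar genes passed. Csn2 had a difference of -0.06 ± 0.48 and Wap, whose promoter drives the Cre, of 1.29 ± 0.83. None of 12 basal genes passed (median 0.42), with Krt5 at 1.08 ± 1.16 and Krt14 at 1.54 ± 0.72, and the sorted arrays ranged from 8.48 to 13.06 in Krt5. Of the 2 other probe sets of Krt14, with differences of 0.86 and 1.30, 1 was called higher. Without sorted replicates 2, 3 and 4 the basal median was 1.05 and 1 of the 12 rose, the P-cadherin gene Cdh3 by 1.70 (limma adjusted p = 0.0365). Krt5 then had a difference of 2.12 (adjusted p = 0.305) and Krt14 of 2.11 (0.079). Foxa1, a pioneer factor of hormone-sensing luminal cells, rose from 5, 5, 5.01 and 5 unsorted to 6.77, 7.87 and 9.16 sorted without overlap (difference 2.81 ± 0.64, adjusted p = 0.00165). The other 5 tested genes of its list, which include the estrogen and progesterone receptor genes, did not pass. The genes joined in the fusion gave -0.25 ± 0.33 for Etv6 and -0.44 ± 0.32 for Ntrk3. Neither passed, and the probe sets were designed to the mouse genes and do not measure the fusion as such. Of 8 housekeeping genes none passed, with a median of 0.06.

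Markers of other cell types were few among the calls. The counts below stand beside 5.88% of all genes called higher and 11.6% called lower. A count near these shares is no result about a cell type. None of 19 endothelial genes passed (median -0.14), Pecam1 was at the floor on all 11 arrays and Cdh5 had a difference of -0.83 ± 0.53, although its other probe set was called higher, by 0.86. The pericyte gene Rgs5 read 9.24, 9.16, 8.75 and 8.28 unsorted and 6.16, 6.75 and 7.99 sorted and fell by 1.94 ± 0.56 (adjusted p = 0.0123), though its 3 other probe sets were not called. Mcam fell by 1.21, and these were 2 falls of 9 pericyte genes. Of 20 fibroblast and matrix genes 1 fell, Fbln1 (-0.65). Col1a1 (-0.56 ± 0.92) and Col3a1 (0.30 ± 0.88) did not pass, and the highest sorted value of both was that of replicate 3. The T cell gene Cd3e was at the floor on all 11 arrays, and none of 7 tested T cell genes passed. Jchain, of antibody-secreting cells, was above the floor on 1 array, sorted replicate 4. Small rises passed for Pax5 (0.83) and Tnfrsf17 (0.40) of 13 B cell genes and for Gzma (1.20) of 9 NK cell genes, the last with sorted replicate 4 far above the rest. Single genes passed in 5 other lists: Lcp1 (-1.0) of 11 pan-leukocyte genes, Lama5 (-0.98) of 11 basement membrane genes, Cd36 (3.24) of 9 adipocyte genes, Mb (-1.20) of 8 muscle genes and Sox10 (-1.20) of 4 Schwann cell genes. On the sorted arrays Sox10 read 9.11 to 10.71 and Cd36 6.93 to 10.60, so their list names do not say which cells held this RNA. Of 30 alternative settings, Lcp1 lost its call in 18, Mcam in 17, Mb in 16, Tnfrsf17 in 15 and Gzma in 10. Cd36, Lama5 and Sox10 lost theirs in 7 each, Fbln1 in 6, and Pax5 and Rgs5 in 3 each. Without sorted replicates 2, 3 and 4 Mcam, Fbln1, Tnfrsf17, Gzma, Lama5, Cd36, Mb and Sox10 did not pass (limma adjusted p between 0.0518 and 0.321). Of 15 hypoxia and glycolysis genes 3 fell: Ankrd37 (-2.08), Egln3 (-1.95) and Pfkl (-1.50), beside 11.6% of all genes. Egln3 lost its call in 20 of 30 alternative settings, Pfkl in 13 and Ankrd37 in 2, and without sorted replicates 2, 3 and 4 only 1 of the 15 fell.

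Of 20 macrophage genes 2 rose, beside 5.88% of all genes. They were Cd14 (2.41), a receptor for bacterial lipopolysaccharide, and Fcgr1 (0.71). Csf1r, the receptor that macrophages need to survive, read 8.57, 8.47, 8.57 and 8.41 unsorted and 7.18, 9.56 and 12.15 sorted and did not pass (1.43 ± 0.77). Its 3 highest values were those of sorted replicates 2, 3 and 4. Of 12 dendritic cell and MHC class II genes 4 rose, all of them class II genes: H2-Eb1 by 2.44, H2-Aa by 2.30, H2-Ab1 by 1.94 and H2-DMa by 1.74. Without sorted replicates 2, 3 and 4 none of these 4 passed (adjusted p between 0.139 and 0.247), with differences of 1.94, 1.61, 1.47 and 1.20 in that order, Fcgr1 did not (0.446), and Cd14 rose by 1.56 (adjusted p = 0.0278). The macrophage median was 0.59 on all arrays and -0.38 without those 3, where Msr1, a scavenger receptor, fell. Those 3 arrays were set apart by the mean of these same macrophage genes. A lower macrophage median without them was therefore fixed by that choice, and lower values of genes that vary with macrophage markers are not independent of it.

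The sort was compared with the same step in primary tumors, which grew in the mice themselves (8 sorted arrays of 6 mice, 23 unsorted arrays of 22 tumors and 14 mice). The comparisons share no array, but they share mice. E344 and F433, the origins of sorted transplants 3 and 5, also gave 4 of the 8 sorted primary arrays, and tumor 4 of F433 was sorted both as a primary tumor and after transplantation. D279 gave 1 of the unsorted primary tumors and CR115 another, so the overlaps below do not come from independent animals. In primary tumors 3832 genes (25.3%) passed, 1458 higher (9.62%) and 2374 lower (15.7%). Of the 891 genes higher in sorted transplants 572 were called higher in the primary sort, which is 64.2% of the first list and 39.2% of the second. Of the 1761 lower genes 1183 were called lower there, or 67.2% and 49.8%, and no gene was called in opposite directions. The primary differences were 4.29 for Fosb, 4.56 for Dusp1, 5.60 for Cxcl2, 4.37 for Hspa1a, -1.42 for Ube2c and -1.41 for Aurka. In the primary sort 8 of 8 AP-1 genes, 19 of 23 immediate early genes, 15 of 18 cytokine and NF-kB genes and 7 of 11 heat shock genes rose, and 15 of 24 cell cycle genes fell. The interferon list differed in its values, with 1 rise, 1 fall and a median of -0.46 in primary tumors, but none of its genes passed the test of the difference.

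**Figure D3:**
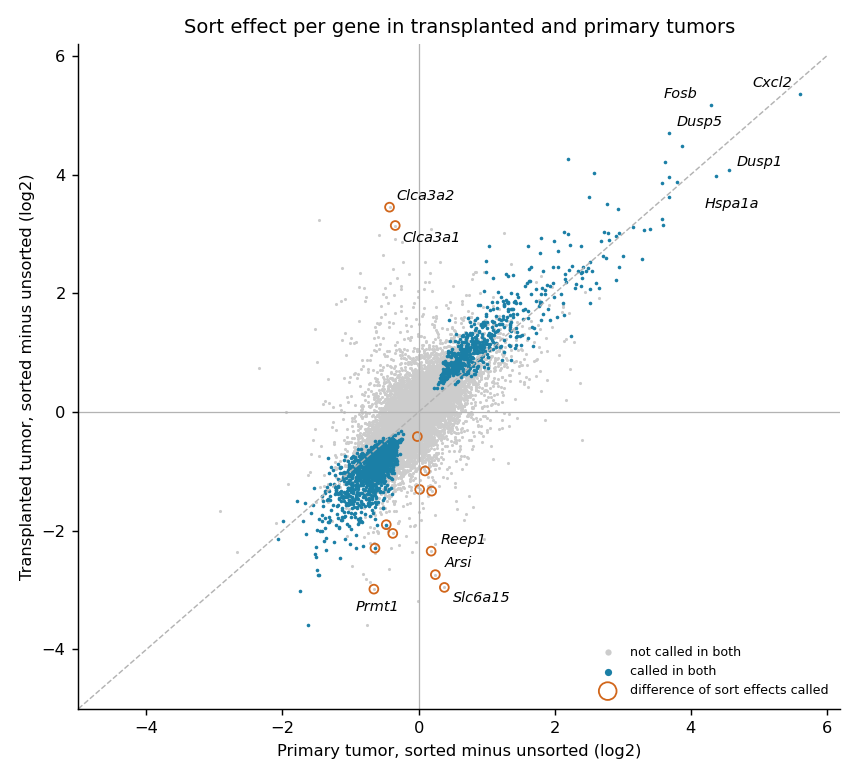
Fitted sorted minus unsorted difference (log2) of each of 15150 genes in transplanted tumors (vertical axis) against primary tumors (horizontal axis), with a dashed line of equality. Genes called in both lie in the upper right and lower left, and circles mark the 13 genes whose sort effect differed.

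The difference between the sort effects passed for 13 genes (0.0858%), 2 more positive (0.0132%) and 11 more negative (0.0726%) in transplants, and 1192 had an unadjusted p under 0.05. The 2 positive ones are neighbours in a cluster of chloride channel accessory genes and alike enough for probes to take up RNA of both. Clca3a2 read 9.58, 9.14, 7.70 and 5 unsorted and 9.52, 11.41 and 12.53 sorted, and rose by 3.45 ± 0.73, against -0.43 ± 0.48 in primary tumors (difference 3.88 ± 0.83, adjusted p = 0.0445). Unsorted replicate 4, at the floor, was the low one, and without mouse CR115 neither Clca3a2 nor Clca3a1 was called in the transplant sort (adjusted p = 0.117 and 0.14). Clca3a1 gave a difference between effects of 3.48 ± 0.75. In the other direction, Slc6a15 read 8.52, 9.09, 8.05 and 8.47 unsorted and 5, 5 and 7.29 sorted, at the floor on 4 of 7 sorted arrays, with a difference between effects of -3.33 ± 0.58 (adjusted p = 0.00245). Arsi (-2.99 ± 0.42, adjusted p = 3.64e-05) and Reep1, which shapes the endoplasmic reticulum (-2.53 ± 0.30, adjusted p = 5.65e-07), followed, then Prmt1 (-2.33 ± 0.50), the LIM-only factor gene Lmo4 (-1.67 ± 0.37) and Nme4 (-1.65 ± 0.32), a nucleoside diphosphate kinase of mitochondria.

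Several of these genes were high in the unsorted transplants. Arsi read 9.48, 9.52, 9.98 and 9.84 in the 4 unsorted transplants, 7.0 and 7.44 on the 2 arrays of the primary tumor of CR115, the mouse of origin of replicates 3 and 4, and 6.49 to 8.90 on the other 21 unsorted primary arrays. Reep1 read 8.08, 8.45, 7.16 and 7.0 in the transplants, 5 and 5.74 in the CR115 primary tumor and at most 5.89 in the others. Slc6a15 was at 5 and 5.29 in that primary tumor and at most 7.38 in the others. For these 3 genes and Lmo4, Hdac8, Lrrc1 and Naa30, and for Sema3b, Mtm1 and Krt23 outside the 13, none of the 21 other arrays reached the lowest unsorted transplant. By contrast with Arsi, Reep1 and Slc6a15, some genes read near the values of the CR115 transplants in the CR115 primary tumor. They were Lrrc1 (7.06 and 7.01), Naa30 (7.98 and 8.05) and Nme4 (6.92 and 6.90). Clca3a2 was low in the CR115 transplants (7.70 and 5), against 10.55 and 10.90 in the CR115 primary tumor and 8.25 to 12.86 on the other 21 arrays. Its CR90 values of 9.58 and 9.14 lay within that range. With 2 mice of origin, a trait of these tumors and a trait of unsorted transplants cannot be told apart. The number of genes called for the difference was 6 without sorted replicate 4 or 6, 7 without sorted replicate 5 or unsorted replicate 1, 22 without unsorted replicate 4, 63 without unsorted replicate 3 and 496 without mouse CR115.

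**Figure D4:**
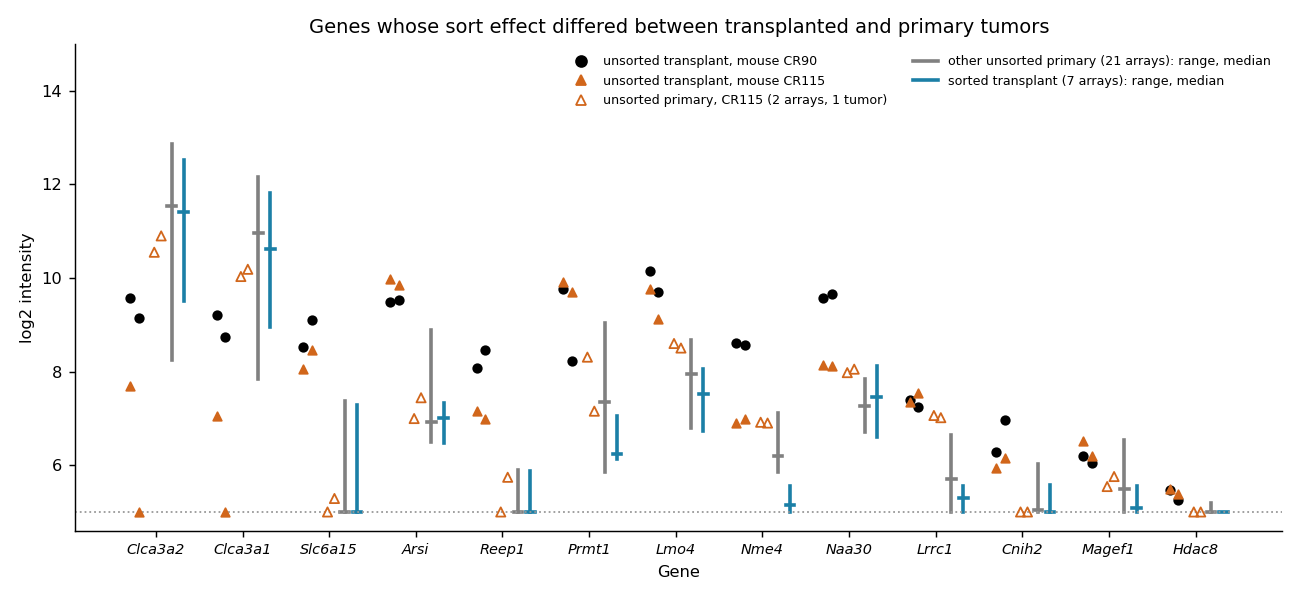
Log2 intensity (vertical axis) of the 13 genes whose sort effect differed between transplanted and primary tumors. Points are the 4 unsorted transplants and the 2 arrays of the CR115 primary tumor, and bars span the lowest to highest value, with a tick at the median, of 21 other unsorted primary arrays and 7 sorted transplants. Arsi, Reep1 and Slc6a15 are high in the 4 unsorted transplants and low in the CR115 primary tumor.

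Mouse D279 allowed a look at 1 tumor before and after transplantation and sorting, with no test since each state is 1 array. The primary array had the highest log2 3' to 5' ratios of the 23 unsorted primary arrays, 0.59 for Gapdh and 1.19 for Actb. In the sorted transplants of tumor 1 these were -0.32 and 0.23 at passage 2, and -0.03 and 0.36 at passage 4. The part of this in the values below was not tested. Unsorted primary tumor 1 of D279 read 6.34 in Fosb, and its sorted transplants read 10.85 at passage 2 and 10.07 at passage 4. Dusp1 went from 6.52 to 12.36 and 11.73, Cxcl2 from the floor to 9.41 and 9.56, and Hspa1a from 7.13 to 11.86 and 11.06. All 4 genes read higher in both sorted transplants than in the primary tumor of the same line. They are among the 12 largest rises, to which these sorted arrays contributed, so this order was largely fixed by that choice. Other called genes did not all follow it. Egr1 went from 10.42 to 12.41 and 9.66, and Ddit3 from 6.88 to 8.22 and 6.85, both lower at passage 4 than in the primary tumor. Sema3b, the largest fall between the groups, read 8.60 in that primary tumor and 9.09 and 9.30 in its sorted transplants, no lower after the sort.

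Unsorted tumors of 1 mouse resembled each other more than sorted tumors of 1 mouse did, but these pairs are not alike. The sorted pairs all come from D279 and mix 2 tumors and passages 2 and 4. No tumor number or passage is stated for the unsorted ones, so sort, tumor and passage cannot be told apart here. The pairs of unsorted arrays from 1 mouse correlated across genes at 0.988 and 0.990, with 67 and 76 genes more than 2-fold apart, and pairs from different mice at 0.926 to 0.939, with 1249 to 1511 such genes. Sorted pairs from mouse D279 correlated at 0.923 to 0.951 and sorted pairs from different mice at 0.833 to 0.953. The 3 lowest of these, at 0.833 to 0.844, all joined replicate 4 with replicates 5, 6 and 7. Genes are not independent replicates, and these values only describe the arrays. The genes that varied most over the 5 sorted mice were, by mouse mean, Tspan8, Bpifa2, Wif1, Chil1, Retnla and Krt17. Wif1, a secreted inhibitor of Wnt ligands, read 10.81, 10.79 and 11.81 in the 3 sorted tumors of D279, 5 in those of E344, F402 and F433 and 5.91 in that of D396. Its unsorted values of 8.76, 9.21, 9.82 and 9.98 lay between these. Tspan8, a tetraspanin, was at the floor in D279 and at 11.61, 11.11 and 10.32 in E344, F433 and D396, and Bpifa2, a salivary secreted protein, reached 11.77 in F433 and 8.16 in D396 with 5.09 or less in the other 5. Retnla, made by alternatively activated macrophages, was at 11.66 and 11.32 in sorted replicates 2 and 4, and at 7.51 or less in the other 5 sorted arrays. Krt17 read 5.32 in E344 and 9.82 or more in the other 6.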

How the data were processed

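Each sample was 1 Affymetrix MOE430.2 array. The authors deposited linear intensity values per probe set, and their summarization and scaling are not given in the sources used here. Intensities under 32 were set to 32 and log2 was taken. Each gene was read by its probe set with the highest mean, and 15150 of 18192 genes above the 40th percentile of an array on at least 4 arrays were tested. limma 3.58.1 (R 4.3.3) was fitted over all 6 groups, with 50 replicates (2 arrays of 1 CR115 primary tumor averaged) and a random effect shared by arrays of 1 mouse of origin (duplicateCorrelation, 0.358), and p-values were adjusted by Benjamini-Hochberg over all genes. Tables and plots used Python 3.11.15, pandas 2.3.3 and matplotlib 3.10.9. The p-values measure only the spread between these samples. The fit was tested on simulated data. Named genes were the 12 largest called rises and the 12 largest called falls whose higher mean lay above the median probe set, the 6 largest called differences between sort effects in each direction, up to 4 called genes per list and a fixed set of markers. Transcripts without an established name were skipped, and other genes in the text were named after their values were seen. Members and lists were chosen with earlier results of these data known. Alternatives to the floor, filter, scaling, probe set, block and samples were tried.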

Additional observations from a re-analysis of the deposited data

Results flagged for a closer look

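In 272 sets of values (the named genes and list means in the sorted or the unsorted transplants) 21 had an array far from the others by Dixon's test at its 95% value, which chance gives in about 1 of 20 sets. Of these 21, 8 were sorted replicate 4, from mouse F402. It was the highest sorted array in Ptgs2 (10.6), Gzma (9.11), Jchain (6.86), Adipoq (6.90), the NK cell list mean (6.90) and the mast cell list mean (6.25), and the lowest in Esrp1 (7.97) and Atf4 (10.5). Sorted replicate 7 was far below the others in Atf3 (10.12) and Egr1 (9.66), and sorted replicate 6 far above in Egln3 (10.7). Among unsorted arrays, replicate 1 stood apart in Ptgs2 (5.12, high) and Krt14 (8.87, low). Replicate 2 stood apart in Prmt1 (8.22, low), Cldn3 (11.7, low), Top2a (10.15, high) and the mesenchymal transition list mean (7.24, high). Replicate 3 stood apart in Fosl1 (5.16), Foxa1 (5.01), Cd36 (7.20) and the mean of alternatively activated macrophage genes (7.80), high in each. Ptgs2 and Foxa1 lay at the floor on the other 3 unsorted arrays, and Fosl1 was at the floor on 2 of them and at 5.02 in replicate 4.

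The sort effect differed between transplanted and primary tumors, by limma's test of the difference, in 13 genes. It was more positive in transplants by 3.88 for Clca3a2 and 3.48 for Clca3a1. It was more negative for Slc6a15 (-3.33), Arsi (-2.99), Reep1 (-2.53), Prmt1 (-2.33), Lmo4 (-1.67), Nme4 (-1.65), Naa30 (-1.53), Lrrc1 (-1.42), Cnih2 (-1.32), Magef1 (-1.09) and Hdac8 (-0.40).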

How the results depend on the processing

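The same 7 AP-1 genes were called higher in all 30 alternative settings. Of 78 called named genes 34 kept their call in all of them, and of 3026 gene results under an alternative 2651 kept their side of the threshold, 372 kept direction and lost the call, and 3 gained one. Of the 2651, 40 changed sign, in 15 genes and only where neither setting called the gene. The 2652 calls became 1305 with the transplant groups fitted alone, 4437 without the mouse block and 1674 with the arrays of a mouse averaged. The 13 differences between sort effects became 7 with a floor of 16, 44 with a floor of 100, 22 after quantile normalization, 36 with arrays scaled to 1 median, 6 without a filter, 26 with the mean of a gene's probe sets, about 2.1e+02 without the block and 5 with mice averaged, and could not be given for the transplant groups alone. Cytokine and NF-kB rises (15) became 8 with a floor of 100 and 7 for the transplant groups alone, interferon rises (6) became 3 and 2, and cell cycle falls (11) became 7 with mice averaged. These settings were chosen after seeing the data: with sorted replicates 5 to 7 alone there were 998 calls, 8 differences, 11 immediate early, 7 cytokine and 1 interferon rises and 6 cell cycle falls. Without sorted replicates 2, 3 and 4 there were 1446 calls, 1 interferon rise and 6 cell cycle falls. With a spike-in covariate there were 20 differences and 2 interferon rises, and with the percent at the floor 1463 calls, 2 interferon rises and 5 cell cycle falls. Leaving out 1 replicate or mouse gave 712 to 3187 calls, 6 to 496 differences, 4 to 8 heat shock, 13 to 18 immediate early, 10 to 16 cytokine and 1 to 8 interferon rises, and 2 to 13 cell cycle falls. Mice E344, F402, F433 and D396 gave 1 sorted array each, so leaving them out is leaving out sorted replicates 3 to 6. No paired analysis was possible because the sorted and unsorted transplants share no mouse of origin and no replicate number in the labels. The causes of these changes were not tested. Genes at the floor have only an upper bound, and 4 unsorted arrays from 2 mice limit the precision.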

Other observations

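Of 21 hair follicle genes on the array, from a list of 24 chosen after these values were seen, 13 were higher in both tumors from mouse CR90 than in every other transplant. The share of all genes that met this was not counted, so the count is no result about hair follicle genes as a set. Tumors from CR90 and CR115 lay more than 2-fold apart without overlap in 1178 genes. The genes named below were picked for the largest gaps between these mice, so a gap in them was fixed by that choice. Prr9 read 10.70 and 11.18 in unsorted replicates 1 and 2 and was at the floor in replicates 3 and 4. Krtap8-1, a keratin-associated protein gene of the hair shaft, read 9.22 and 10.60, and Tchh, the trichohyalin of the inner root sheath, 9.57 and 10.08 against 5.53 and 5.39 in the tumors from CR115. Spink12, Krtap15 and Krt73 showed the same order. Some unsorted primary tumors also had high levels: Prr9 reached 12.54 and was above the floor on 5 of 23 arrays, Tchh reached 11.09 and was above it on 15, and Krt73 reached 9.51 on 1 array. Krtap8-1 reached no more than 5.47 there. The part of skin or of such differentiation in the results for CR90 was not tested.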
